A study of Mus musculus with 6 samples.

Results

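This account covers the genes of the ADAMTS proteases, the matrix metalloproteinases and the tissue inhibitors of metalloproteinases (TIMPs) in mouse brain endothelial cells. Members were taken by name and annotated gene type. They are protein-coding rows of the count table called Adamts with a number, Mmp with a number and an optional letter, or Timp1 to Timp4, which gave 19 ADAMTS, 22 Mmp and 4 Timp genes, 45 of 55450 rows. Mmp1a, the other row of such a name, is annotated as a polymorphic pseudogene and was left out; its counts were not used. Poly(A) RNA was sequenced from CD31-positive cells that were isolated on magnetic beads from brains of pups at postnatal day 7, in 3 control and 3 mutant libraries. The genotype of the control pups was Cdh5(PAC)-CreERT2; Rbpjflox/WT, that of the mutant pups Cdh5(PAC)-CreERT2; Rbpjflox/flox, on a mixed FVB/N and C57BL/6 background, and both sexes were used. Pups of both groups thus carried the Cre recombinase under an endothelial promoter, had at least 1 floxed Rbpj allele and were given 100 µg tamoxifen on days 1 and 2. RNA was pooled from many pups. Nothing in the labels tells if pools differed between the libraries of one group. Where they did not, the p-values below reflect technical spread alone.

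Metalloproteinases cut proteins of the extracellular matrix and of the cell surface with a zinc ion held in their active site. Most are made as inactive precursors. Mmp enzymes act on collagens, elastin and basement membrane proteins, and some of them are anchored in the cell membrane. ADAMTS enzymes are secreted and cut proteoglycans such as versican, process procollagens, or act on fibrillin microfibrils and von Willebrand factor. TIMPs bind the active sites of Mmp enzymes and block them, and Timp3 inhibits ADAMTS enzymes as well. In the brain, metalloproteinases are known for remodelling of the vascular basement membrane and for opening of the blood-brain barrier.

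Library totals ran from about 75744900 to 82092500 estimated counts, and about 4 counts stood for 1 read pair. Libraries separated by group on the first principal component (42.2% of the variance). On the second (15.8%), mutant libraries 1, 2 and 3 lay at 17.6, 3.84 and -21.9. Rbpj itself, which encodes the DNA-binding partner of Notch receptors, stood at 54.3, 54.3 and 53.8 CPM in control and 47.9, 46.8 and 45.2 CPM in mutant libraries, where CPM is the count relative to the library total as scaled by TMM, the normalization of edgeR (log2 fold change -0.21 ± 0.0417 SE, adjusted p = 0.0129). Exons outside the deleted part add to this gene-level count, which makes it a weak check of the labels. Summed CPM of 10 endothelial marker genes was 12151 to 12489 in control and 12424 to 13440 in mutant libraries, and none of these genes was at 0. Groups were compared by the quasi-likelihood test of edgeR over 19549 genes, with Benjamini-Hochberg adjustment over all of them. A gene is called higher or lower where its adjusted p was under 0.05. The sum of endothelial markers hides moves in both directions. Of the 10 genes, 3 were called higher, Emcn (log2 fold change 0.47), Pecam1 (0.41) and Tie1 (0.21). Another 2 were called lower, Tek (-0.62) and Cdh5 (-0.15). Of all genes tested, 7.56% were called higher and 6.83% lower. Values of 3 libraries are given below in the order of library 1, 2 and 3, and errors of log2 fold changes are SE with 3 libraries in each group.

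Many members differed between the groups, some upward and some downward. Mmp12 and Mmp13 had counts only in mutant libraries, Mmp9 was 2.55-fold higher in them, and 5 of 7 proteoglycan-cleaving ADAMTS genes were higher. Among the latter, the calls of Adamts5 and Adamts9 were lost when certain single libraries were left out. Adamts16 was 2.36-fold lower, and the inhibitor genes Timp2 and Timp3 were lower. Of the 45 members, 36 passed the filter on low counts and were tested, 4 (Adamts13, Adamts19, Mmp3 and Mmp10) had too few counts for it, and 5 (Mmp1b, Mmp7, Mmp20, Mmp21 and Mmp27) were at 0 in every library. Among the 36, 10 were called higher and 8 lower, where 7.56% of all genes tested were called higher and 6.83% lower. The 18 called members are 50% of those tested, against 14.4% over all genes. Among members with a mean of at least 1 CPM in either group, 17 of 32 were called (53.1%), against 18.1% of all such genes. Mmp12 and Mmp13 passed the filter only through the mutant libraries. Without them 8 of 34 tested members were higher and 8 lower (47.1% called), and 16 of 31 of those with at least 1 CPM were called (51.6%). The median log2 fold change of the 36 was 0.04, also with Mmp12 and Mmp13 at the bounds given below, and that of all genes -0.01. Libraries of the groups did not overlap in 25 of the 36, including all 18 called ones, against 34.1% of all genes tested. Without Mmp12 and Mmp13, they did not overlap in 23 of 34. Of the called members, 10 changed by less than 1.5-fold. The count of lower members was 4 when control library 1 or control library 2 was left out and 5 when mutant library 2 was.

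To compare genes with each other, levels were taken per length, as CPM per kilobase of annotated exon. Mmp15, a metalloproteinase anchored in the membrane, was highest in control libraries at 52.2 ± 1.08 (SD, n = 3), followed by Adamts1 at 40.4 ± 1.4, Timp3 at 30.9 ± 0.468 and Timp2 at 26.8 ± 1.38. Mmp28 (22.8 ± 0.53), Mmp14 (20.9 ± 1.11), Timp1 (19.9 ± 0.759), Mmp2 (15.6 ± 1.39) and Mmp25 (13.6 ± 1.61) came next. In this order the intervals of 1 SD overlapped between Mmp14 and Timp1 and between Mmp2 and Mmp25, and not between the other neighbours. Adamts1 alone made up 54.1% of the summed per-length level of the ADAMTS genes in control and 61.2% in mutant libraries, and Mmp9 went from 3.9% to 8.85% of the Mmp sum. The ADAMTS sum stood at 74.7 ± 2.29 in control and 102 ± 1.87 in mutant libraries, the Mmp sum at 144 ± 4.54 and 162 ± 3.78, and the Timp sum at 78.7 ± 0.243 and 66.7 ± 0.917. These sums were not tested. They rest on annotated exon length, which counts exons that these cells may not use.

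**Figure D1:**
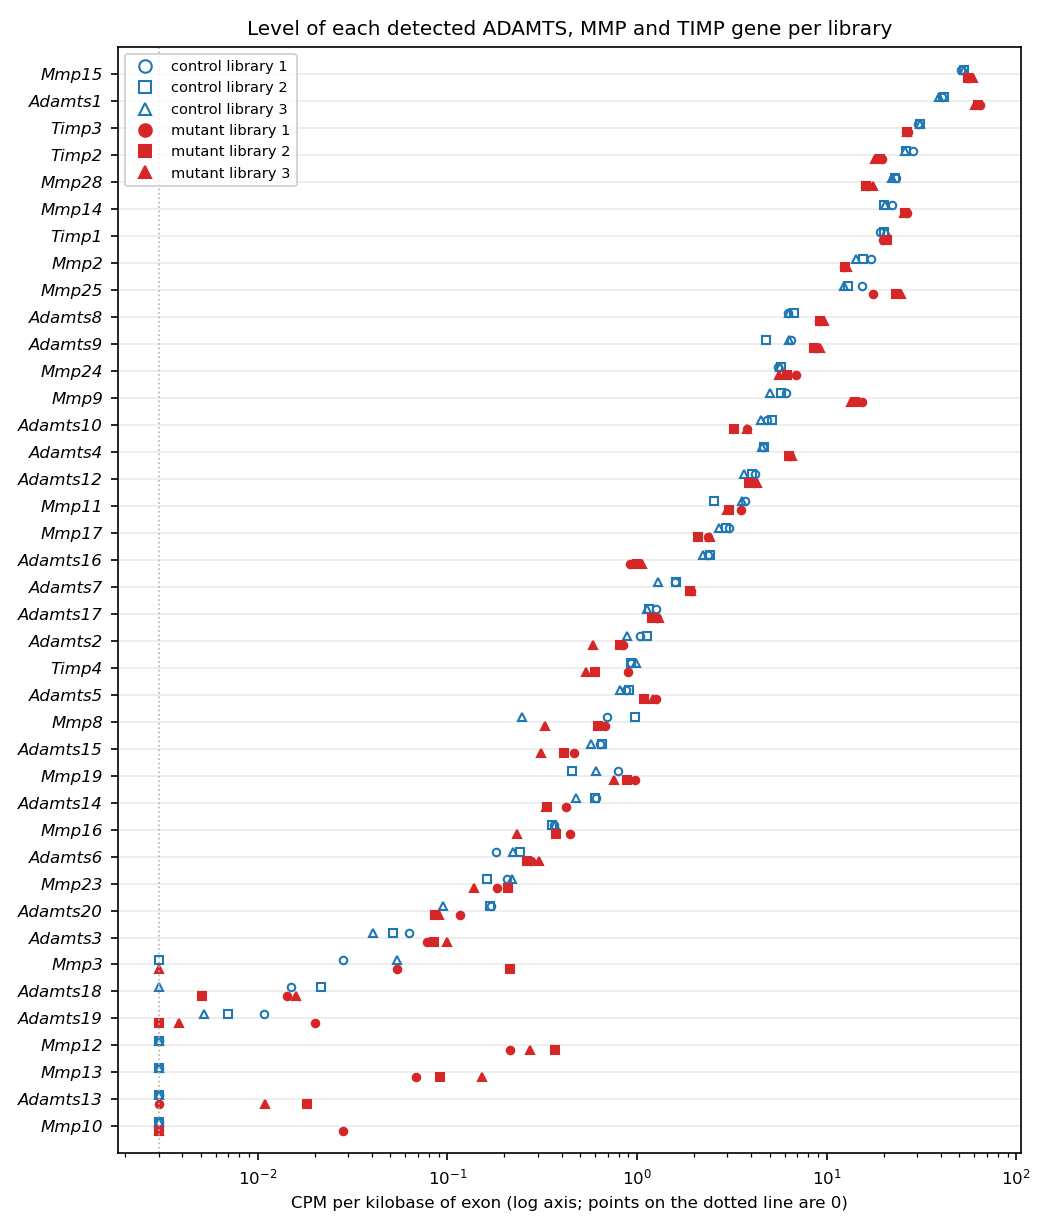
Level of each detected member in each library, as CPM per kilobase of exon on a log axis, for control and mutant libraries; points on the dotted line are 0. Mmp15 and Adamts1 have the highest levels, and Mmp12 and Mmp13 are at 0 in the 3 control libraries.

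The elastase gene Mmp12 and the collagenase gene Mmp13 were detected in the mutant libraries only. Mmp12, also known as macrophage elastase, had 0 counts in each control library and 127, 207 and 147 counts in the mutant libraries, or 1.54, 2.66 and 1.98 CPM. Together these are about 120 read pairs, at least 41.6-fold higher than a floor of 3 read pairs over the control group. Mmp13, known from cartilage and bone, had 0 counts in control and 15, 19 and 30 counts in mutant libraries, or 0.182, 0.245 and 0.405 CPM. That is about 16 read pairs, at least 5.53-fold higher than the same floor. Every mutant library held reads of both genes and no control library held any. Both were called, but they entered the test only through the group where they are high, so nothing is read from their p-values. The call of Mmp13 was lost without mutant library 2 (adjusted p = 0.0578) or mutant library 3 (0.0735). Some exon bases of Mmp12 overlap Mmp1b on the other strand, and Mmp1b was at 0 in every library.

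Of 12 markers of microglia and macrophages, 8 were lower and 0 higher in the mutant libraries, which held Mmp12. Their summed level was 1699 to 1746 CPM in control and 1335 to 1408 CPM in mutant libraries. Granulocyte markers summed to 46.9 to 63.1 CPM in control and 61.6 to 84.9 CPM in mutant libraries, and these sums overlapped. Their median log2 fold change was 0.31. Of the 10, 4 (Ngp, Camp, Ltf and Retnlg) were higher in all mutant libraries than in any control library. Only Ngp was called (0.76 ± 0.169, adjusted p = 0.0276). Mpo (-0.13) and Ly6g (-0.20) had negative log2 fold changes and were not called. Over all genes tested, 34.1% did not overlap and 14.4% were called, in either direction. No marker of either list was at 0. The part of these cells in the levels of Mmp12 and Mmp13 was not tested. In RNA of such an isolate, fewer cells of a type and less RNA per cell cannot be told apart.

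Mmp12 and Mmp13 are neighbours at one end of a cluster of 9 members on chromosome 9, from 7272514 to 7699585 (GRCm38, GENCODE M21), in the order Mmp13, Mmp12, Mmp1b, Mmp3, Mmp10, Mmp8, Mmp27, Mmp20 and Mmp7. Mmp8, the neutrophil collagenase, was the other member of the cluster with enough counts to test. It stood at 1.68, 2.37 and 0.598 CPM in control and 1.65, 1.51 and 0.796 CPM in mutant libraries, which overlapped (log2 fold change -0.23 ± 0.523, adjusted p = 0.841). Mmp3 had 4, 0 and 8 counts in control and 8, 30 and 0 in mutant libraries, and Mmp10 had 4 counts in mutant library 1 alone. The promoters of Mmp12 and Mmp13 are shown because both genes had reads in mutant libraries only, that of Mmp10 as a neighbour with the same letters and almost no reads, and those of Mmp28 and Mmp25 as called members with the core letters that RBPJ binds. Each is RefSeq sequence of GRCm38.p6, 5′ to 3′ on the strand of the gene, from 250 bases before the start site to 50 bases from it on. Capitals mark TGANTCA, the letters bound by AP-1 factors, a motif chosen after the values were seen, and TGGGAA. Both were searched on both strands, and they do not overlap in these windows. The windows are chr9:7347124-7347423 (plus strand) for Mmp12, chr9:7272264-7272563 (plus strand) for Mmp13, chr9:7502092-7502391 (plus strand) for Mmp10, chr11:83462991-83463290 (minus strand) for Mmp28 and chr17:23645220-23645519 (minus strand) for Mmp25.
Mmp12: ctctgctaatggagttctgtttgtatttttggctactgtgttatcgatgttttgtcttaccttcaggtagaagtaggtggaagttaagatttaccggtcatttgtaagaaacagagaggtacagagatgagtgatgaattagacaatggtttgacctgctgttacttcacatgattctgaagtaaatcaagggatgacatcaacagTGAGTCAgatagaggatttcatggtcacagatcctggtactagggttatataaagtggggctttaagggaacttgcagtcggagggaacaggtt
Mmp13: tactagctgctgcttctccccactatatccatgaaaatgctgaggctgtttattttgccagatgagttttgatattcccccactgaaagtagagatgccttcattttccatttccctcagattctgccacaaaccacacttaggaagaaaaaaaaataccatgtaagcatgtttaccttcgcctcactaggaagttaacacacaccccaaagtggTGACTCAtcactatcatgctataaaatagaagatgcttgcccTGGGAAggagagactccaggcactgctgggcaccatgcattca
Mmp10: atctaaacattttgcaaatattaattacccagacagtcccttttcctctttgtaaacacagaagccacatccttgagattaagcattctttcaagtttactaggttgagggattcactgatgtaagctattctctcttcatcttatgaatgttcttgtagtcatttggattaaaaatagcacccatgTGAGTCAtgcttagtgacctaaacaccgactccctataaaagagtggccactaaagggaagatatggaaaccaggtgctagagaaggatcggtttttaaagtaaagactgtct
Mmp28: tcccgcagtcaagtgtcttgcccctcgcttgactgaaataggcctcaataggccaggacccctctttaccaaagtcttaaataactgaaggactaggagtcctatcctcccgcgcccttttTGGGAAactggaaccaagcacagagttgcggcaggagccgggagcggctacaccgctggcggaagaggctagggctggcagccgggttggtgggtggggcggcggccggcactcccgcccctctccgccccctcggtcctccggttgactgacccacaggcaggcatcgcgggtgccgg
Mmp25: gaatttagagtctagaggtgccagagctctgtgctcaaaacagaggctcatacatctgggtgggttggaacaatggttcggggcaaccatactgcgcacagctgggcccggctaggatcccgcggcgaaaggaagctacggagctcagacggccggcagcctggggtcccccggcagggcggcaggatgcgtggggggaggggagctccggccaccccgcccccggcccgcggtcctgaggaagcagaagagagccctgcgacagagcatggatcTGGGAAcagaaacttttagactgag

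In these windows TGANTCA starts at position -44 of Mmp12, -35 of Mmp13 and -63 of Mmp10, with the start site as position 1. TGGGAA starts at position 8 in Mmp13, -129 in Mmp28 and 26 in Mmp25. Windows were found for 31 of the 45 members. TGANTCA occurred in 7 of 34 member windows (20.6%) and in 7.81% of all 32851 promoter windows of the same length. The 7 belong to Mmp12, Mmp13, Mmp10, Mmp1b, Mmp20, Mmp3 and Mmp7, all in the chromosome 9 cluster, and 5 of these genes had few counts or none in both groups. TGGGAA occurred in 10 of the 34 (29.4%) and in 25.6% of all windows. Of the members that hold it, Mmp13 and Mmp25 were called higher and Mmp28 lower, and the others (Adamts13, Adamts14, Adamts20, Mmp1b, Mmp23, Mmp7 and Timp1) were not called or not tested. A match describes letters in this window and no binding.

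Mmp9 (ENSMUSG00000017737, chromosome 2, 164940780 to 164955850, plus strand), the gelatinase that degrades type IV collagen of the basement membrane, rose the most among tested members with counts in both groups. It stood at 21.6, 20.3 and 17.9 CPM in control and 54.7, 49.9 and 47.9 CPM in mutant libraries. The mutant libraries were far above the controls, which lay close together (log2 fold change 1.35 ± 0.0858, adjusted p = 7.06e-05). Granulocytes express Mmp9 too. Of their 10 markers, 4 were higher in mutant libraries without overlap and 1 of these was called, as given above. Over all genes tested, the shares in either direction were 34.1% and 14.4%. The part of granulocytes in the rise of Mmp9 was not tested. The other gelatinase gene, Mmp2, moved the opposite way. Its level was 57.6, 52.3 and 48.3 CPM in control and 41.4, 42.1 and 43.2 CPM in mutant libraries (-0.32 ± 0.0678, adjusted p = 0.0194). The groups did not overlap, but the call was lost when control library 1, control library 2, mutant library 1 or mutant library 2 was left out (adjusted p of 0.052 to 0.0669). Fibroblast markers, of cells that express Mmp2, summed to 961 to 1076 CPM in control and 663 to 844 CPM in mutant libraries. Of the 10 fibroblast markers, 3 were called lower and none was at 0, where 6.83% of all genes tested were called lower. The part of fibroblasts in the fall of Mmp2 was not tested.

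Membrane-anchored metalloproteinases were split, with 2 of 6 higher, 1 lower and 3 not called. Over all genes tested, 7.56% were called higher and 6.83% lower. Mmp14, a transmembrane enzyme that activates the precursor of Mmp2, stood at 132, 120 and 122 CPM in control and 158, 154 and 153 CPM in mutant libraries. All mutant libraries were above the controls (0.32 ± 0.0453, adjusted p = 0.00323). Mmp25, held by a lipid anchor and known from neutrophils, had 81.8, 68.6 and 65.8 CPM in control and 92.8, 124 and 131 CPM in mutant libraries. Mutant library 1 lay closer to control library 1 than to the other mutant libraries (0.68 ± 0.159, adjusted p = 0.0482). With any 1 library other than mutant library 1 left out its adjusted p was 0.061 to 0.151, and without the low-count filter 0.0967. Mmp17, also held by a lipid anchor, fell from 20.2, 19.6 and 18 CPM to 15.8, 13.9 and 16 CPM (-0.34 ± 0.0836, adjusted p = 0.0339). The call of Mmp17 was lost (0.0509 to 0.125) with any 1 library other than control library 3 left out. Mmp15, the highest member per length in control, had 275, 285 and 285 CPM in control and 299, 300 and 320 CPM in mutant libraries. These did not overlap but missed the threshold (0.12 ± 0.0382, adjusted p = 0.0814); with library size as the only scaling the adjusted p was 0.0484, and with counts divided by 4 0.0496. Mmp24 (0.14 ± 0.0785, adjusted p = 0.315) and Mmp16 (-0.06 ± 0.229, adjusted p = 0.915) overlapped between the groups.

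Mmp28, the secreted enzyme epilysin, was lower in each mutant library. It had 90.2, 88.5 and 86.1 CPM in control and 63.3, 62.6 and 67.9 CPM in mutant libraries (-0.45 ± 0.0447, adjusted p = 0.000535). Some of its exon bases overlap a gene on the other strand. Mmp11 (-0.05), Mmp19 (0.49) and Mmp23 (-0.15) were not called, with adjusted p from 0.215 to 0.896, and overlapped between the groups.

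**Figure D2:**
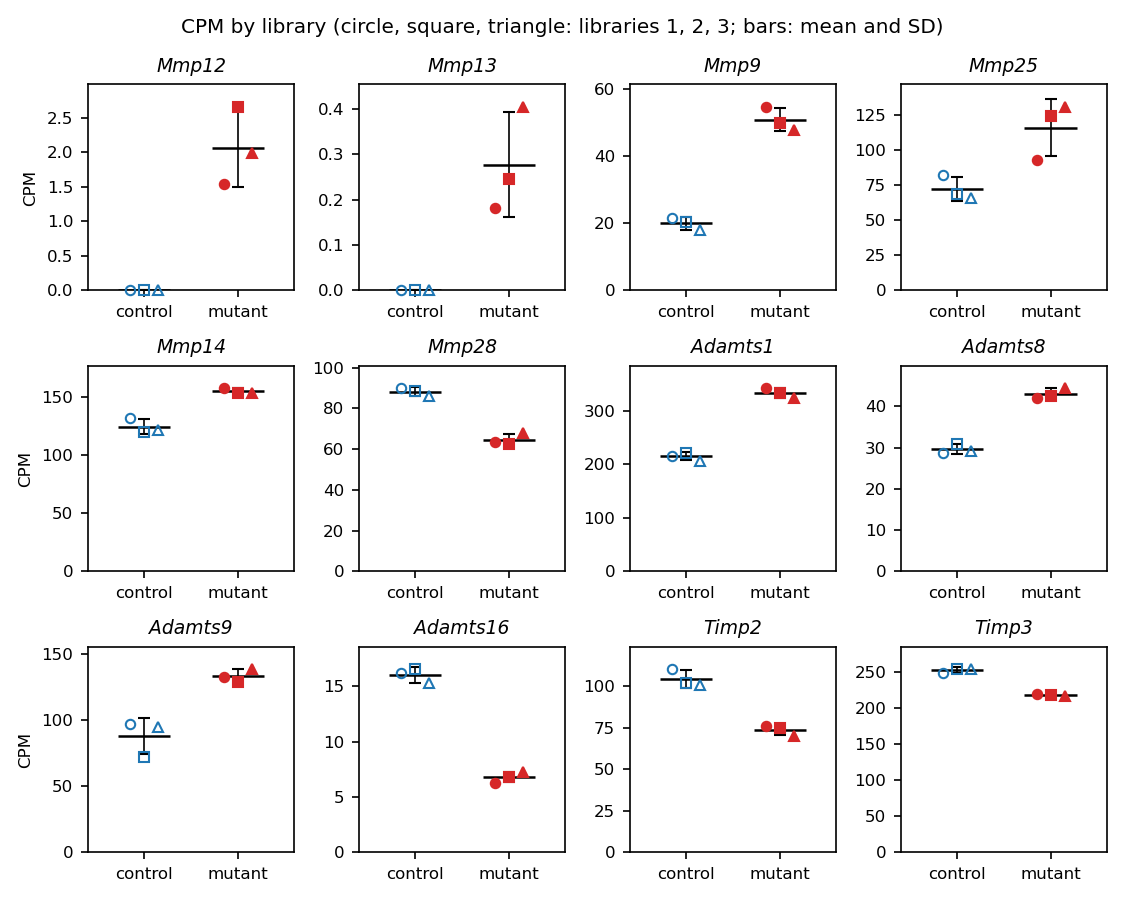
CPM of 12 called members by library, on axes that start at 0; circles, squares and triangles are libraries 1, 2 and 3 of the control and mutant groups, and bars give the mean and SD of 3 libraries. Mmp12 and Mmp13 are at 0 in control, Mmp9 is 2.55-fold higher in mutant libraries, and mutant library 1 lies below the other mutant libraries for Mmp25.

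Of the ADAMTS genes that cut proteoglycans such as versican and aggrecan, 5 of 7 were higher in mutant libraries and 1 was lower. Over all genes tested, 7.56% were called higher and 6.83% lower. The grouping by role was made with earlier results of these data known. Adamts1 (ENSMUSG00000022893, chromosome 16, 85793827 to 85803113, minus strand), the highest ADAMTS gene per length, stood at 216, 221 and 206 CPM in control and 343, 332 and 323 CPM in mutant libraries. The groups were far apart (0.63 ± 0.0394, adjusted p = 6.45e-05). Adamts8 rose from 28.8, 31 and 29.1 CPM to 42, 42.5 and 44.5 CPM (0.54 ± 0.0531, adjusted p = 0.000529). Adamts4 rose from 22.3, 22.6 and 22 CPM to 31, 30.4 and 31.4 CPM (0.47 ± 0.0509, adjusted p = 0.000819). In both genes the spread within a group was far under the difference between groups. Adamts9 had 97.1, 72.1 and 94.8 CPM in control and 132, 129 and 139 CPM in mutant libraries (0.60 ± 0.118, adjusted p = 0.0237). Control library 2 was the lowest, and without control library 3 or any 1 mutant library the adjusted p was 0.0527 to 0.0902. Adamts5, an aggrecan-cleaving enzyme, had 9.41, 9.84 and 8.78 CPM in control and 13.6, 11.8 and 13.1 CPM in mutant libraries (0.46 ± 0.0906, adjusted p = 0.0141), and its adjusted p was 0.0506 without mutant library 1. Adamts4, Adamts8 and Adamts9 share exon bases with genes on the other strand. The lower gene was Adamts15, at 6.58, 6.8 and 5.96 CPM in control and 4.8, 4.25 and 3.21 CPM in mutant libraries (-0.66 ± 0.162, adjusted p = 0.0344). Its call was lost (0.0521 to 0.112) with any 1 library other than mutant library 1 left out. Adamts20 had 1.53, 1.52 and 0.855 CPM in control and 1.05, 0.772 and 0.81 CPM in mutant libraries, which overlapped (-0.57 ± 0.293, adjusted p = 0.275).

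Neighbouring members moved together in one place and apart in another. Adamts1 and Adamts5 lie 53.1 kb apart on chromosome 16 and were both higher. Adamts8 and Adamts15 lie 20.1 kb apart on chromosome 9, on opposite strands; the former was higher and the latter lower.

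Adamts16 (ENSMUSG00000049538, chromosome 13, 70727802 to 70841811, minus strand), an ADAMTS enzyme known to cut fibronectin, fell the most of the tested members. It stood at 16.2, 16.6 and 15.3 CPM in control and 6.3, 6.82 and 7.24 CPM in mutant libraries. The groups were far apart (-1.24 ± 0.087, adjusted p = 0.00011). Adamts10, which acts with fibrillin microfibrils, fell from 40.3, 42.8 and 37.1 CPM to 31.4, 26.9 and 31.4 CPM (-0.42 ± 0.0823, adjusted p = 0.0132), and its adjusted p was 0.0528 to 0.0551 without control library 1 or control library 2. The other tested fibrillin-associated genes, Adamts6 (0.39 ± 0.175, adjusted p = 0.202) and Adamts17 (0.09 ± 0.087, adjusted p = 0.608), were not called. None of the 3 procollagen-processing genes was called. Libraries of the groups did not overlap in any of them, which also held for 34.1% of all genes tested. Mutant libraries lay below the controls for Adamts2 and Adamts14 and above them for Adamts3. Adamts2 had 9.74, 10.6 and 8.24 CPM in control and 7.89, 7.61 and 5.44 CPM in mutant libraries (-0.45 ± 0.165, adjusted p = 0.13). Adamts14 had 3.16, 3.13 and 2.47 CPM in control and 2.2, 1.74 and 1.71 CPM in mutant libraries (-0.63 ± 0.18, adjusted p = 0.0586) and was called by DESeq2 (adjusted p = 0.0278). Adamts3, under 1 CPM in every library, had a log2 fold change of 0.76 ± 0.382, adjusted p = 0.26. Adamts7 (0.36 ± 0.103, adjusted p = 0.0606) and Adamts12 (0.04 ± 0.0649, adjusted p = 0.735), which cut cartilage oligomeric matrix protein, were not called, though Adamts7 was with DESeq2 (0.019) and with counts divided by 4 (0.0471). Adamts18 (-0.05 ± 1.11, adjusted p = 0.987) was near its detection limit. Adamts13, the enzyme that trims von Willebrand factor, had 7 and 4 counts in mutant libraries 2 and 3 and 0 in the other libraries. Of 12 pericyte and smooth muscle markers 3 were called higher, 5 were called lower and none was at 0. Of all genes tested, 7.56% were called higher and 6.83% lower. The contractile smooth muscle markers Acta2 (-1.32), Tagln (-1.17), Myh11 (-1.02) and Cnn1 (-1.84) all fell by over 2-fold, and Notch3 (-0.19) was lower too. Kcnj8 (0.49), Abcc9 (0.52) and Cspg4 (0.19) were the higher ones. Pdgfrb (-0.05), Rgs5 (0.09), Anpep (-0.02) and Des (-0.14) were not called, so pericyte markers did not rise as a class. The sum of the 12, mostly Rgs5, was 3592 to 3718 CPM in control and 3731 to 3851 CPM in mutant libraries. Fibroblast markers are given above. The part of either cell type in the lower ADAMTS genes was not tested.

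**Figure D3:**
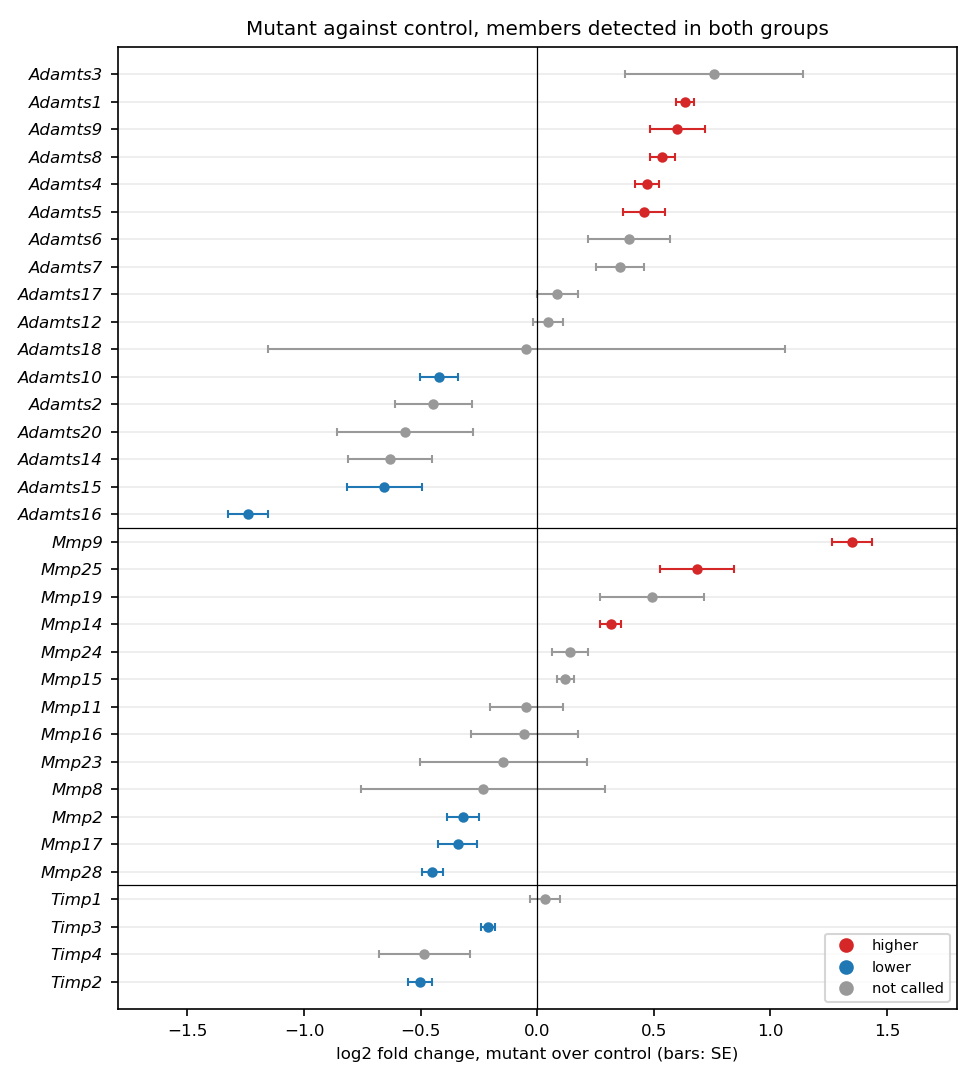
Log2 fold change, mutant over control, with SE from the edgeR fit, for the 34 tested members with counts in both groups, by family; red is called higher, blue called lower and grey not called. Mmp9 (1.35) and Adamts16 (-1.24) mark the ends, and of the 4 Timp genes the 2 called ones are lower.

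Of the inhibitor genes, 2 of 4 were lower and 0 higher, where 6.83% of all genes tested were called lower and 7.56% higher. Timp2 (ENSMUSG00000017466, chromosome 11, 118301069 to 118355740, minus strand), which inhibits Mmp2 and also takes part in its activation by Mmp14, had 111, 102 and 101 CPM in control and 76.3, 75 and 70.4 CPM in mutant libraries. The groups were well apart (-0.50 ± 0.0514, adjusted p = 0.000632). Timp3, which binds to the matrix and inhibits ADAMTS enzymes as well, had 248, 254 and 254 CPM in control and 219, 217 and 216 CPM in mutant libraries. The fall was small, and the spread within each group smaller still (-0.21 ± 0.0298, adjusted p = 0.00293). Timp3 shares exon bases with Syn3 on the other strand. Timp1, known for binding the precursor of Mmp9, had 17, 17.8 and 18.3 CPM in control and 17.7, 18.4 and 18.2 CPM in mutant libraries. Its groups overlapped (0.03 ± 0.0635, adjusted p = 0.81). Timp4 had 5.51, 5.49 and 5.85 CPM in control and 5.31, 3.55 and 3.17 CPM in mutant libraries (-0.48 ± 0.196, adjusted p = 0.163). Mutant library 1 lay just under the controls, and without it Timp4 was called lower (adjusted p = 0.0173). The count of 0 higher Timp genes was also 0 with DESeq2 and limma-voom, and 0 at an unadjusted p under 0.05 in edgeR.

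Among 23 tested genes that activate, hold back or clear these enzymes, 6 were higher and 11 lower, with a median log2 fold change of -0.27. The share called was 73.9%, against 14.4% of all genes tested and 18.1% of those with a mean of at least 1 CPM in either group. The proprotein convertase gene Pcsk6 went from 7.16 ± 0.398 to 55.2 ± 0.903 CPM (2.94 ± 0.0622, adjusted p = 1.65e-06). Plaur, the urokinase receptor, rose by 1.35 (adjusted p = 6.92e-06) and Tfpi2, a serine protease inhibitor, by 1.32 (adjusted p = 6.57e-05). Reck, a membrane-anchored inhibitor of metalloproteinases, fell from 51.7 ± 1.49 to 34.7 ± 0.574 CPM (-0.57 ± 0.0451, adjusted p = 0.000179). Also lower were Bsg, known to induce metalloproteinases (-0.52), Sdc1, a syndecan (-1.11), and Pcolce, an enhancer of procollagen processing (-0.75). Plg, plasminogen itself, was at 0 in every library.

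Of 16 related ADAM and ADAMTS-like genes 4 were called higher and 1 was called lower, and the median log2 fold change was -0.15. The share called was 31.2%, against 14.4% of all genes tested and 18.1% of those with a mean of at least 1 CPM in either group. Adam19 rose from 24.9 ± 0.84 to 62.3 ± 2 CPM (1.32 ± 0.0499, adjusted p = 8.06e-06). Adam12 rose by 0.73, Adam8, known from leukocytes, by 1.83, and Papln, an ADAMTS-like matrix protein, by 0.77. Adam15 fell (-0.32 ± 0.0418, adjusted p = 0.00214).

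Substrates split as well, with 8 of 36 called higher, 13 called lower and a median log2 fold change of -0.20. The share called was 58.3%, against 14.4% of all genes tested and 18.1% of those with a mean of at least 1 CPM in either group. The higher ones are Lamb1, Nid2, Lama4, Hspg2, Lamc1, Nid1, Col4a1 and Col4a2, all of which encode basement membrane proteins, and Lama5 and Col18a1, which also do, were called lower. Lamb1 and Lama4, laminin chains, rose by 1.01 and 0.90, Nid2, a nidogen, by 0.98, and Hspg2, which encodes perlecan, by 0.62. The lower ones with the smallest p were Eln, elastin (-0.89), Bgn, biglycan (-0.67), Lama5, another laminin chain (-0.41), and Tnc, tenascin C (-0.48). Vcan, versican, named here after its values were seen, is a substrate of Adamts1, Adamts4, Adamts5 and Adamts9. It stood at 11.9, 11.7 and 11.1 CPM in control and 11.4, 11.7 and 9.99 CPM in mutant libraries. The groups overlapped (-0.07 ± 0.089, adjusted p = 0.699). The count of lower substrates was 8 when control library 1, control library 2, mutant library 1 or mutant library 2 was left out. Col1a1, Col1a2, Col3a1, Dcn and Lum stand in the fibroblast marker list as well.

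Other marker lists differed in sum between the groups. Erythroid markers summed to 6971 to 7177 CPM in control and 4663 to 4958 CPM in mutant libraries, astrocyte markers to 480 to 533 CPM in control and 259 to 387 CPM in mutant libraries and choroid plexus markers to 5093 to 5542 CPM in control and 3450 to 4487 CPM in mutant libraries. All 3 sums were lower in each mutant library, and sums were not tested. Called lower were 5 of 6 erythroid, 2 of 8 astrocyte and 1 of 7 choroid plexus markers, and 0 were called higher. Over all genes tested, 6.83% were called lower and 7.56% higher. In either direction, 14.3% of the choroid plexus list was called, near the 14.4% of all genes tested. For astrocyte markers this share was 25%, and for all genes with a mean of at least 1 CPM in either group 18.1%. The choroid plexus sum was mostly Ttr, which was not called. Gja1, the largest astrocyte marker and not called, had 201, 79.2 and 198 CPM in mutant libraries. Neuron markers summed to 211 to 220 CPM in control and 225 to 268 CPM in mutant libraries. Lymphocyte markers summed to 9.18 to 12.2 CPM in control and 12.6 to 14.4 CPM in mutant libraries. Both sums were higher without overlap. Of 10 neuron markers, though, 0 were called higher and 1 lower (Stmn2, -0.24). Dcx, not called, went from a mean of 28.7 CPM in control to 54.7 CPM in mutant libraries. Of 7 tested lymphocyte markers 0 were called. The oligodendrocyte list overlapped. No listed marker was at 0 in all libraries.

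**Figure D4:**
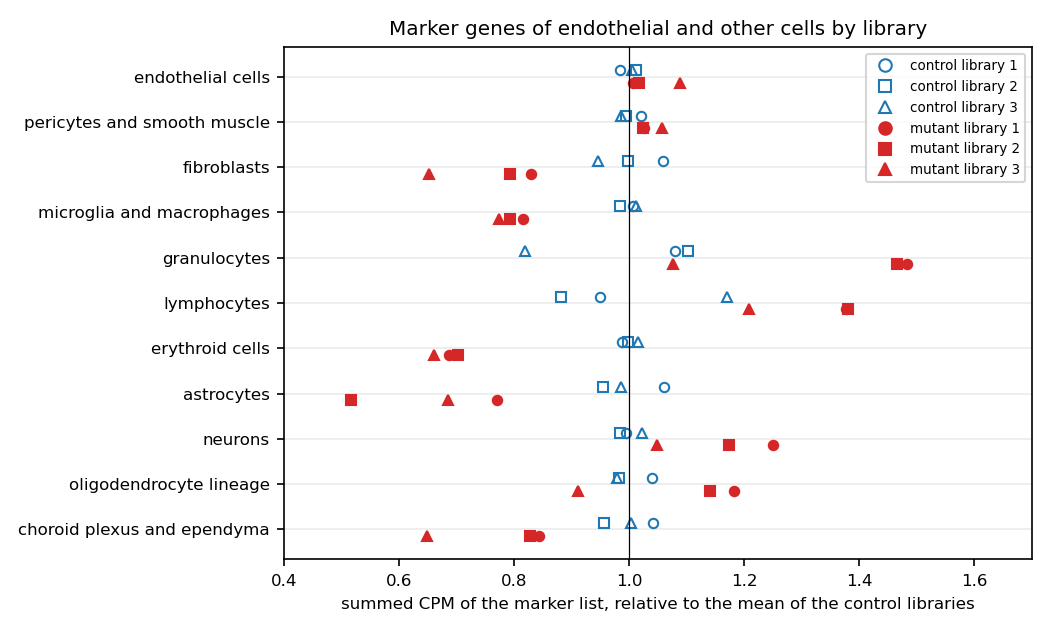
Summed CPM of each marker list in each control and mutant library, divided by the mean of the control libraries. Microglia, fibroblast, erythroid and astrocyte lists lie below 1 in each mutant library, and granulocyte values overlap between the groups.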

How the data were processed

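RNA-seq of 3 control and 3 mutant libraries was compared. The authors deposited a table of estimated counts per gene, given as whole numbers without normalization. The submitters' processing notes name the tools HISAT2, StringTie 1.3.4, edgeR, cutadapt 1.10 and FastQC 0.10.1 and the build GRCm39, with no role for each. The sources used here give neither the annotation nor the use of strand in counting. All 55450 identifiers match GENCODE M21 (GRCm38), which gave symbols, coordinates and exon lengths. In the deposited quality table the count of valid reads was about 50226900 to 53986300 per library, and valid reads were 96.5 to 96.8 percent. Low counts pile up at 4 (1118 to 1190 genes per library, against 316 to 365 at 3), so about 4 counts are 1 read pair, and read pairs set the precision. One label field gives another age; postnatal day 7 was used.

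Genes were kept by filterByExpr, scaled by TMM and tested by the robust quasi-likelihood F test of edgeR 4.0.16 under R 4.3.3, fitted on group alone. The deposited estimates hold no fractions, so they entered the planned test as they are. SE is the size of the log2 fold change over the square root of F. Libraries of a group differed by 1.81 to 2.62 times sampling noise (median chi-square over its expectation, in read pairs), and each was kept as 1 replicate. The procedure was tried on counts simulated from the mean levels and dispersions of these same data, without the steps of 4 counts. Such a trial cannot show how the test performs on the deposited counts. A fold against a group at 0 used a floor of 3 read pairs over that group, which covers counting error only. Alternatives were RLE or no scaling, no or a stricter low-count filter, DESeq2 1.42.0, limma-voom (limma 3.58.1), counts divided by 4, each library left out, and a replicate term. Members called or with a mean of at least 1 CPM in either group are described in most detail, and other lists by up to 4 called genes in each direction with the smallest p, of which 1 is not reported here. Members, roles and lists were chosen with earlier results of these data known.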

Additional observations from a re-analysis of the deposited data

How the results depend on the processing

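Of the 18 called members, 10 (Adamts1, Adamts4, Adamts8, Adamts16, Mmp9, Mmp12, Mmp14, Mmp28, Timp2 and Timp3) were called under all alternatives. Among these, Mmp12 entered the test only through the mutant libraries, so nothing is read from its calls. No called member changed sign under any alternative. Same-numbered libraries of the groups did not deviate together (correlations of 0.011, 0.017 and 0.039), so the numbers are not taken as pairs, although every library but mutant library 1 correlated best with its own number. With the replicate block the count of higher members was 7 in place of 10 and that of lower members 5 in place of 8, that of higher Mmp genes 3 in place of 5 and of lower Mmp genes 1 in place of 3. With 1 library left out, the counts of higher and lower members were 7 to 9 and 4 to 7, those of higher and lower ADAMTS genes 3 to 5 and 1 to 3, and those of higher and lower Mmp genes 3 to 5 and 1 to 3. Lower substrates numbered 8 to 13, and lower ADAM and ADAMTS-like genes 1 to 2. The last count was 2 without the low-count filter, with the stricter filter and with DESeq2. The cause was not tested, other than that fits with 1 library left out hold fewer libraries. Mmp13 had no value with the stricter filter, DESeq2 or counts divided by 4.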

Other observations

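Adam10, a sheddase of Notch receptors and cadherins that was picked here after its values were seen, differed within the mutant group. It stood at 537, 545 and 532 CPM in control and 297, 291 and 566 CPM in mutant libraries (log2 fold change -0.48 ± 0.306, adjusted p = 0.412 by edgeR), so mutant library 3 lay above the controls and the other two well below them.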
